A study of Mus musculus with 157 samples.

Results

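The livers compared here are those of the 40 male pre-Collaborative Cross mice with the highest, and the 40 with the lowest, mean score of the transcripts Cidea, Cidec, Plin4 and Mogat1, out of 157 mice. The other 77 mice form the middle of the ranking and were used as mice outside both groups. All mice carried mixed genomes of 8 founder strains, the wild-derived CAST/Ei, PWK/Ph and WSB/Ei and the laboratory strains C57BL/6J, 129S1/SvImJ, NOD/LtJ, NZO/H1LtJ and A/J. They were partly inbred, and 1 mouse was taken from each of 157 strains. They ate standard chow and were killed when 12 to 15 weeks old, following a 3-week programme with alcohol exposure and exercise, per the labels' protocols. The labels do not say which mouse received which intervention, so the high and low mice may differ in it.

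Lipid droplets are the fat stores of a hepatocyte: a core of triglyceride inside a single phospholipid layer that carries proteins. Cidea and Cidec belong to the CIDE proteins, which sit where droplets touch and let lipid pass so that they grow; both are abundant in fat cells and low in lean liver. Plin4 belongs to the perilipins, which coat droplets. Mogat1 encodes a monoacylglycerol acyltransferase, which adds a fatty acid to monoacylglycerol on the way to triglyceride. In mouse liver all of them are known to be raised in fatty liver. No measure of liver fat was used here, so the groups are named by the transcripts that chose them.

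Each deposited value is a rank-based score: it gives the place of a mouse among the 157 for 1 gene, from -2.49 to 2.49, and holds no expression level and no fold change. A score unit is close to 1 SD of a gene over the mice. In whole liver, fewer cells of a type and less RNA per cell cannot be told apart. The table names genes by Ensembl identifier, and 0 of its 23176 identifiers were found in the reference table of gene symbols. Symbols are therefore given for the 4 chosen genes alone, as the rule that chose them pairs them with identifiers; these pairs were not checked against a table, and the group names and the promoter search rest on them. No pathway, cell type or marker can be named for the others, markers of fat cells and of hepatocytes included. By the SD of their scores over all genes, 2 arrays stood apart, at 1.57 and 1.40 against a median of 0.943. Both were high mice, of strain numbers 3571 and 559, and several results are given with and without these wide arrays. A search of the promoter windows of Cidec, Plin4 and Mogat1 on both strands for the PPAR-type direct repeat found 0 matches, and 0.381% of the 32851 promoter windows of the mouse table (RefSeq, GRCm38.p6) held one. The windows searched were 300 bases long, 2 for Cidec and 1 each for Plin4 and Mogat1. At that share, 0 matches in so few windows is the usual outcome and cannot inform on PPAR control. It says only that the motif's letters are not in these windows, and Cidea was not searched.

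The mean of the 4 scores ran from 0.350 to 1.68 in the high mice, with a median of 0.628, and from -1.63 to -0.335 in the low mice, with a median of -0.504. The groups were cut from a continuous ranking. The last mouse inside the high group stood at 0.350 and the first outside at 0.343, and the last inside the low group stood at -0.335 and the first outside at -0.331. These values chose the mice and are a description.

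**Figure D1:**
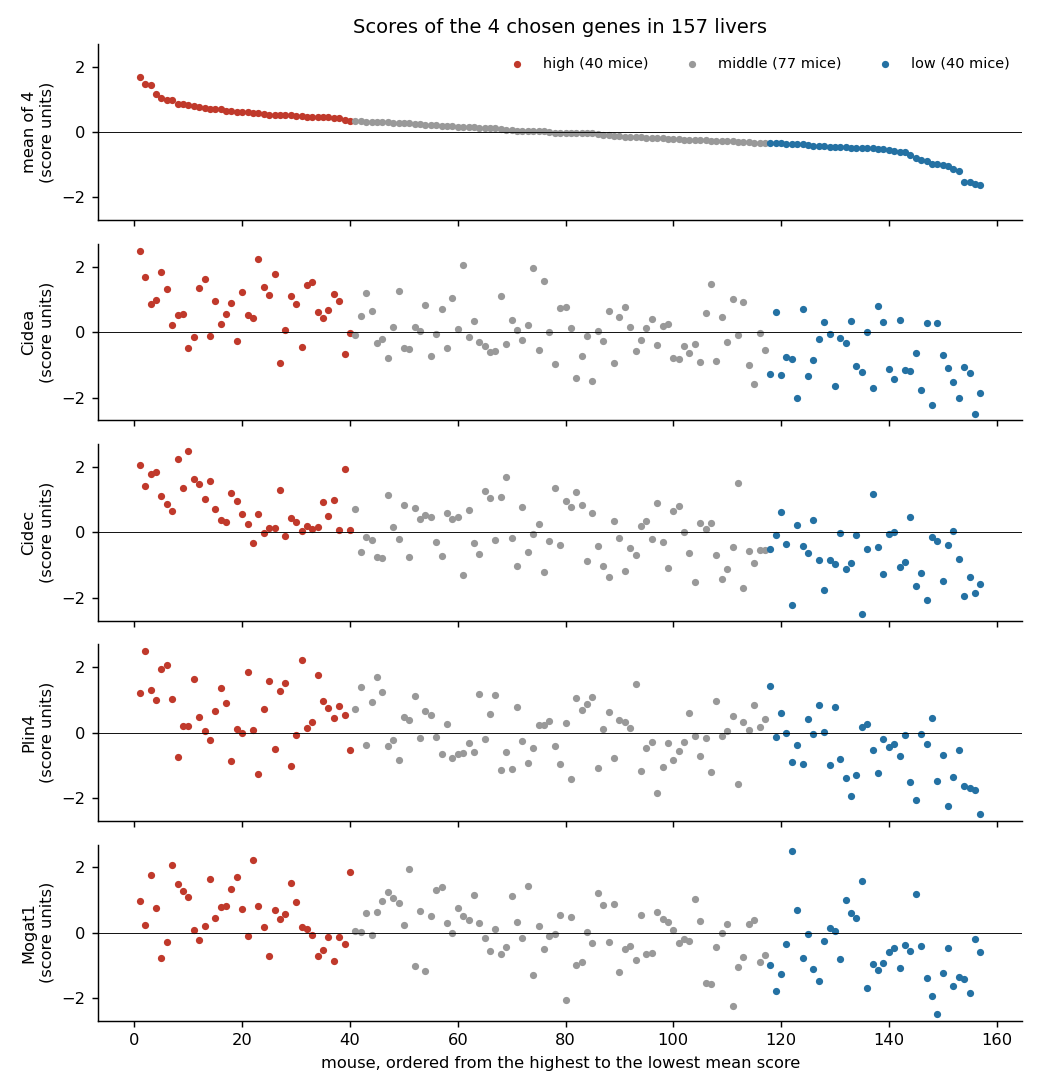
Mean score and the score of Cidea, Cidec, Plin4 and Mogat1 (y axes, score units) in each of 157 livers, ordered on the x axis from the highest to the lowest mean score; red points are the 40 high, grey the 77 middle and blue the 40 low mice. The mean falls smoothly without a gap at the borders, while each gene scatters widely around it, and 11 of the 40 high mice have all 4 genes above 0.

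The first in the ranking was the mouse of strain number 5118, with 2.49 for Cidea, 2.08 for Cidec, 1.21 for Plin4 and 0.963 for Mogat1. Next came strain number 5232, with 1.70 for Cidea, 1.43 for Cidec, 2.49 for Plin4 and 0.240 for Mogat1. At the bottom stood strain number 2533, with -1.86 for Cidea, -1.58 for Cidec, -2.49 for Plin4 and -0.606 for Mogat1. These mice at the ends had all 4 genes on 1 side of 0, and most mice of their groups did not. All 4 genes were above 0 in 11 of the 40 high mice, and none was above 0 in 12 of the 40 low mice. In 26 high mice exactly 3 genes were above 0, and the gene not above 0 was Mogat1 in 11, Plin4 in 7, Cidea in 5 and Cidec in 3. In 22 low mice exactly 1 gene was above 0, namely Cidea in 7 and Cidec, Plin4 and Mogat1 in 5 each.

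For Cidea, the high mice lay between -0.938 and 2.49 with a median of 0.867, and the low mice between -2.49 and 0.810 with a median of -1.04. For Cidec, the high mice lay between -0.331 and 2.49 with a median of 0.695, and the low mice between -2.49 and 1.17 with a median of -0.728. For Plin4, the high mice lay between -1.27 and 2.49 with a median of 0.690, and the low mice between -2.49 and 1.43 with a median of -0.536. Every one of these genes overlapped between the groups. Mogat1 overlapped over the widest range, with high mice between -0.855 and 2.24 (median 0.506) and low mice between -2.49 and 2.49 (median -0.697). The mouse with the highest Mogat1 score of all 157 was thus in the low group.

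The 4 chosen genes varied together only weakly. Over the 157 mice the correlation was 0.206 for Cidea and Cidec (Spearman 0.170), 0.213 for Cidec and Plin4 (Spearman 0.164) and 0.161 for Cidea and Plin4 (Spearman 0.108). Mogat1 stood further apart, at 0.104 with Cidea (Spearman 0.0982), 0.104 with Cidec (Spearman 0.107) and -0.0189 with Plin4 (Spearman -0.0592). Leaving out the 2 mice farthest from the median of the first gene of each pair gave -0.0347 to 0.222. Leaving out the 2 wide arrays gave -0.0173 to 0.210. With batch and cohort means removed, the 6 correlations lay between 0.0174 and 0.230. Within the 8 hybridization batches they ranged from -0.396 to 0.634, and no pair was positive in more than 6 of 8 batches. These correlations describe the values that made the ranking and are given without a test.

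Whether the ranking by 3 of the genes carried the other 1 was tested on the gene left out, which had no part in choosing the mice. In none of the 4 cases did the left-out gene pass the test (limma, batch and cohort as covariates, Benjamini-Hochberg adjusted over 23173 genes). With groups chosen by Cidec, Plin4 and Mogat1, Cidea averaged 0.270 ± 0.901 in the high mice and -0.139 ± 1.14 in the low mice (SD, n = 40 each). The adjusted difference was 0.375 ± 0.240 (SE), with a 95% interval of -0.105 to 0.855 and limma adjusted p = 0.385. Cidec averaged 0.398 ± 0.812 in high mice and -0.198 ± 0.989 in low mice chosen by the other genes (SD, n = 40 each), an adjusted difference of 0.340 ± 0.224 (SE; interval -0.108 to 0.787, limma adjusted p = 0.374). The high means were above the low ones for both CIDE genes, by less than the spread between mice.

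Plin4 averaged 0.136 ± 0.980 in high mice and -0.172 ± 0.977 in low mice chosen by Cidea, Cidec and Mogat1 (SD, n = 40 each). Its adjusted difference was 0.349 ± 0.271 (SE; interval -0.192 to 0.890, limma adjusted p = 0.495). Mogat1 averaged 0.130 ± 0.855 in high mice and -0.0816 ± 1.09 in low mice chosen by the other 3 (SD, n = 40 each), an adjusted difference of 0.366 ± 0.271 (SE; interval -0.176 to 0.908, limma adjusted p = 0.486). All intervals include 0 and reach differences of 0.787 or more, so these data allow no difference as well as differences of that size. Of all genes tested in these 4 fits, 1.43% were called with the score without Cidea, 2.31% without Cidec, 0.354% without Plin4 and 0.069% without Mogat1. With the 2 wide arrays left out, the 4 differences lay between 0.321 and 0.405, and the limma adjusted p-values between 0.400 and 0.632. As no left-out gene passed, the livers are called high and low mean-score livers here and not fatty or lean.

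**Figure D2:**
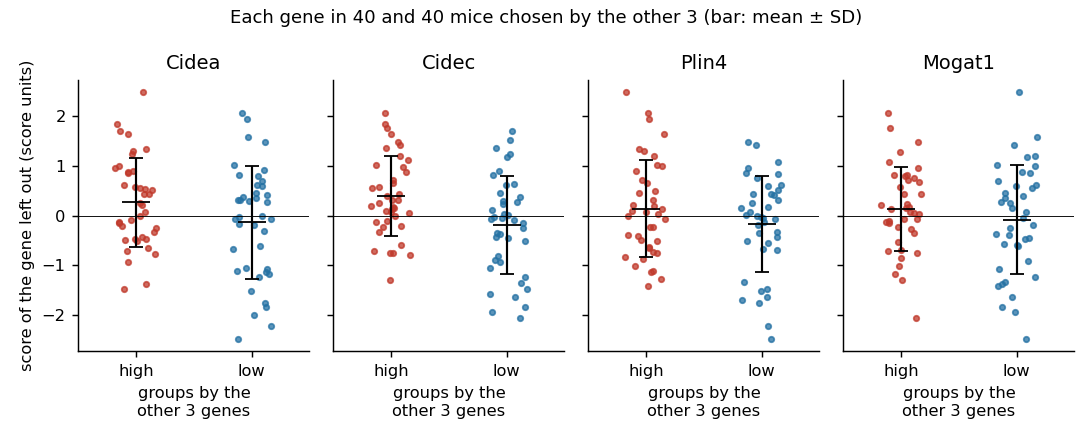
Score of each chosen gene (y axis, score units) in the 40 high (red) and 40 low (blue) mice picked by the mean of the other 3 genes; points are mice, the long bar is the mean and the whiskers 1 SD. The 2 clouds overlap over nearly their whole range for all 4 genes, with high means of 0.130 to 0.398 and low means of -0.198 to -0.0816.

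The high and low mice were unevenly spread over the labels that were used as covariates. Hybridization batch 3 gave 9 high and 2 low mice, and batch 5 gave 3 high and 9 low mice. Kill cohort 7, the largest, gave 16 high and 7 low mice, while cohort 3 gave 1 high and 5 low mice. Of the 73 mice killed in the early cohorts (1 to 6), 13 were high and 22 low; of the 84 killed in the late cohorts (7 to 10), 27 were high and 18 low. By strain-number block, the strain number divided by 1000 and rounded down, block 3 gave 17 high and 9 low mice and block 2 gave 0 high and 4 low.

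Whole arrays also moved with the ranking. The mean score of an array over all genes was 0.0509 ± 0.137 in the high mice and -0.0595 ± 0.0866 in the low mice (SD, n = 40 each). Principal component 1 of all genes, which held 12.1% of the variance, averaged 0.539 ± 1.18 in the high mice and -0.568 ± 0.844 in the low mice (in units of its SD, n = 40 each), and it correlated with the mean score at 0.408. The 2 wide arrays had 4.02 and 3.31 on component 1. Without them the correlation of component 1 with the mean score was 0.374. The other high mice averaged 0.375 on component 1, and their array mean was 0.0394 ± 0.131 (SD).

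Scores are relative to the other mice, so correlations between arrays do not tell how alike 2 livers were in expression level. The mean correlation between 2 arrays was taken over all genes but the chosen 4. It was 0.0171 for pairs of high mice, 0.0241 for pairs of low mice and -0.0338 for a high with a low mouse. For pairs of middle mice it was -0.0065. With batch and cohort means removed these were, in the same order, 0.0092, 0.0114, -0.0236 and -0.0061. Without the 2 wide arrays the mean for pairs of high mice was 0.0083. Neither group was a cluster of like arrays, since the 5th and 95th percentiles of single pairs were -0.172 and 0.262 among high mice and -0.143 and 0.212 among low mice.

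Between the high and the low mice, 135 of 23172 genes passed the test, 0.583% of those tested (limma with batch and cohort as covariates, adjusted p under 0.05). Of these, 100 genes were higher in the high mice (0.432% of those tested) and 35 lower (0.151%). At an unadjusted p under 0.05 there were 4571 genes, 19.7% of those tested, of which 3122 were higher and 1449 lower. The median difference over all genes was 0.0778 score units, with 13352 genes (57.6%) higher and 9820 lower in the high mice. Without covariates, the median over all genes within a batch ran from -0.0704 in batch 8 to 0.148 in batch 6. The mice were chosen on the same arrays, and whatever raises many scores of an array together also enters these differences. With each array's mean and SD as covariates 1 gene was called, ENSMUSG00000028862. All 100 and all 35 genes called without these covariates kept their sign, but they were picked on the same mice, so their signs test nothing further. In that fit the difference was 1.04 for ENSMUSG00000028862, 0.875 for ENSMUSG00000022435, -0.834 for ENSMUSG00000032601 and -1.03 for ENSMUSG00000054008, the identifiers described singly further on.

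The 100 genes called higher had differences from 0.787 to 1.27 with a median of 0.935, and averaged 0.490 in the high mice and -0.485 in the low mice. The 35 genes called lower had differences from -1.11 to -0.786 with a median of -0.928, and averaged -0.492 in the high mice and 0.404 in the low mice. For 0 of these genes did the 2 groups of mice fall apart without overlap. The count was also 0 over all 23172 genes tested, so it does not set the called genes apart. Batch by batch, without covariates, the median difference of the genes called higher ran from 0.131 in batch 8 to 1.29 in batch 1, and that of the genes called lower from -1.17 in batch 2 to -0.197 in batch 8. The medians kept their sign in all 8 batches. As these genes were picked on the same mice, these values describe them and test nothing further.

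**Figure D3:**
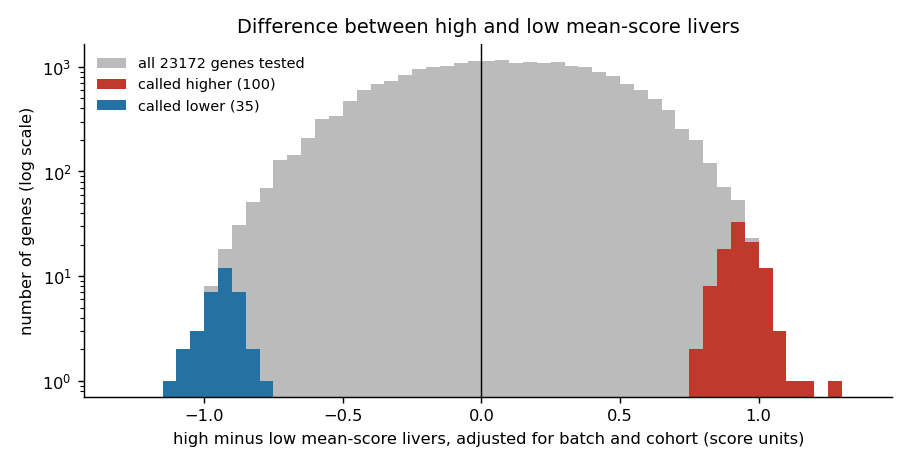
Number of genes (y axis, log scale) by the difference of high minus low mean-score livers, adjusted for batch and cohort (x axis, score units); grey bars are all 23172 genes tested, red the 100 called higher and blue the 35 called lower. The called genes lie towards both ends of a single distribution, whose median is 0.0778, mixed with genes that were not called.

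This count depended strongly on a few arrays and on the covariates. Without the 2 wide arrays 2 genes were called, 1 higher and 1 lower, although the median difference of the 100 genes was still 0.852 and that of the 35 genes -0.870. Leaving out 1 batch at a time gave between 2 genes (without batch 2) and 493 (without batch 8). With strain-number block added as a covariate 3 genes were called, and without covariates 4699. Quantile normalization between arrays, which removes differences in array mean and width, called 27 genes, 15 higher and 12 lower, in place of the split of 100 to 35, and brought the median over all genes to 0.0006. With the mean score as a continuous term over all 157 mice, 4025 genes were called, 17.4% of those tested, 2984 rising and 1041 falling.

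The 77 middle mice had no part in the choice of groups or in the 135 calls. In them, the score range was narrow, from -0.331 to 0.343. Of the 100 genes called higher, 76 rose with the mean score among the middle mice by the sign of the slope, against 52.4% of all genes tested. Of the 35 genes called lower, 27 had a falling slope, or 77.1%, against 47.6% of all genes. The slopes of single genes were not resolved: limma called 0 of 23172 genes in the middle mice, 0% of those tested, with 1803 at an unadjusted p under 0.05, or 7.78% of all genes. That unadjusted level was reached by 8 of the 100 genes and by 4 of the 35, each in its own direction. Over all genes tested, 1278 of those 1803 also had a slope on the side of their own difference. The genes of a set are not independent, with a mean pairwise correlation among the middle mice of 0.209 for the 100 genes, 0.143 for the 35 genes and 0.0097 for all genes, so the shares carry no test.

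Only identifiers with the smallest p in each direction are described singly. ENSMUSG00000028862 lay between -1.43 and 2.49 in the high mice, with a median of 0.951, and between -2.49 and 0.951 in the low mice, with a median of -0.361. It was above 0 in 33 of 40 high mice and in 13 of 40 low mice, and the groups overlapped. Its means were 0.792 ± 0.824 in high and -0.455 ± 0.741 in low mice (SD, n = 40 each), an adjusted difference of 1.27 ± 0.192 (SE, limma adjusted p = 0.000251). The high mean was above the low mean in 7 of 8 batches. In the middle mice its slope was 0.431 ± 0.584 per score unit (SE, limma adjusted p = 0.899), an error too wide to tell it from 0. Of the chosen genes it correlated best with Plin4, at 0.488 over 157 mice, against 0.262 with Cidec, 0.241 with Cidea and 0.0808 with Mogat1. When the groups were chosen without Plin4, its difference was 0.698 (limma adjusted p = 0.128), and without the 2 wide arrays it was 1.27 ± 0.199 (SE, limma adjusted p = 0.000734). With groups chosen without Plin4, the identifiers described next did not pass either (limma adjusted p = 0.0731 for ENSMUSG00000022435, 0.0812 for ENSMUSG00000032601 and 0.145 for ENSMUSG00000054008).

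ENSMUSG00000022435 lay between -0.867 and 2.49 in the high mice, with a median of 0.555, and between -2.49 and 0.914 in the low mice, with a median of -0.655. It was above 0 in 27 of 40 high and 9 of 40 low mice. The means were 0.510 ± 0.895 in high and -0.607 ± 0.809 in low mice (SD, n = 40 each), an adjusted difference of 1.16 ± 0.224 (SE, limma adjusted p = 0.0206). Its mean was higher in the high mice in 7 of 8 batches. Its correlation with component 1 over the 157 mice was 0.634, above those with Cidea (0.375), Plin4 (0.245), Cidec (0.230) and Mogat1 (0.141). Without the 2 wide arrays the difference was 1.06 ± 0.221 (SE, limma adjusted p = 0.0651) and no longer passed.

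ENSMUSG00000032601 was the lower transcript with the smallest p. It lay between -2.49 and 0.757 in the high mice, with a median of -0.429, and between -1.24 and 2.49 in the low mice, with a median of 0.715. It was above 0 in 12 of 40 high and 31 of 40 low mice. The means were -0.564 ± 0.807 in high and 0.590 ± 0.804 in low mice (SD, n = 40 each), an adjusted difference of -1.05 ± 0.179 (SE, limma adjusted p = 0.0021), and the high mean was the lower one in 8 of 8 batches. Its correlation over the 157 mice was -0.550 with component 1 and -0.444 with Cidea, the largest in size among the chosen genes. Without the 2 wide arrays the difference was -0.971 ± 0.176 (SE, limma adjusted p = 0.0085).

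ENSMUSG00000054008 lay between -2.49 and 1.64 in the high mice, with a median of -0.323, and between -1.31 and 2.49 in the low mice, with a median of 0.323. The means were -0.521 ± 0.909 in high and 0.319 ± 0.865 in low mice (SD, n = 40 each), an adjusted difference of -1.05 ± 0.215 (SE, limma adjusted p = 0.0210). The high mean was lower in 7 of 8 batches. Without the 2 wide arrays the difference was -1.03 ± 0.220 (SE, limma adjusted p = 0.0663) and no longer passed. Slopes in the middle mice were 0.212 ± 0.554 for ENSMUSG00000022435, -0.0375 ± 0.573 for ENSMUSG00000032601 and 0.0989 ± 0.620 for ENSMUSG00000054008 (SE), none of which passed in limma. For ENSMUSG00000054008 the slope in these mice had the sign opposite to its difference, by less than its error.

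**Figure D4:**
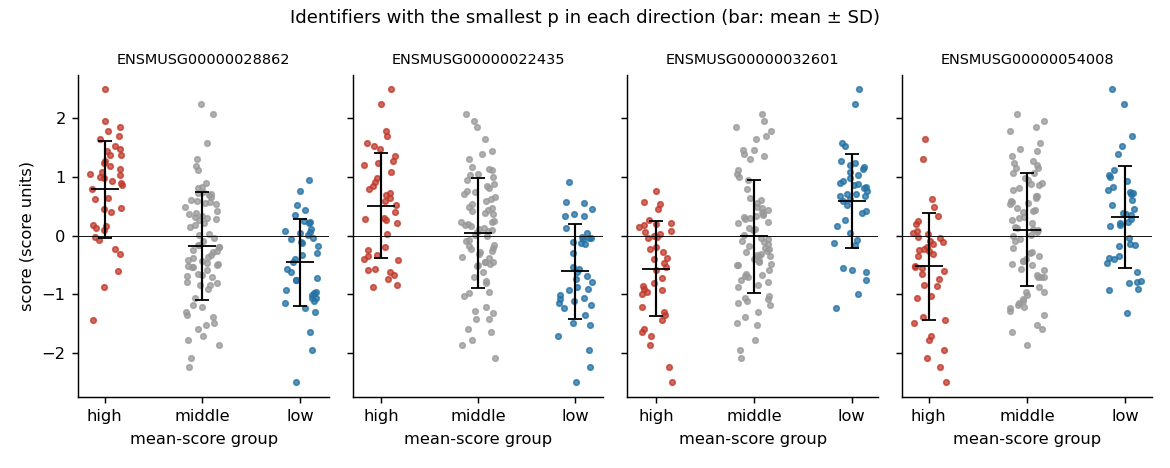
Score (y axis, score units) of 4 identifiers in the high (red, 40 mice), middle (grey, 77 mice) and low (blue, 40 mice) mean-score groups; points are mice, the long bar is the mean and the whiskers 1 SD. The first 2 panels have higher means in high than in low mice (0.792 and -0.455, then 0.510 and -0.607), the last 2 lower ones (-0.564 and 0.590, then -0.521 and 0.319), and in every panel the groups overlap.

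The difference between high and low mice did not pass a test of change between the early and the late cohorts for any gene. The interaction called 0 of 23172 genes in limma (0%, smallest adjusted p = 0.704), with 962 at an unadjusted p under 0.05. Taken alone, the early cohorts (13 high and 22 low mice) gave 1 called gene and the late cohorts (27 high and 18 low mice) 0, with fewer mice in each. The gene called in the early cohorts was not among the 135 called in all cohorts together. Without covariates, the median difference of the 100 genes was 1.08 in the early and 0.911 in the late cohorts, and that of the 35 genes -0.989 and -0.810. Both sets were picked on these same mice, so the medians describe them and test nothing further.

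Taken singly over all 157 mice, the chosen genes differed in how many other genes varied with them. Cidea, as a continuous term with batch and cohort as covariates, was matched by 2886 called genes (12.5% of 23172), of which 2322 rose and 564 fell with it. Plin4 was matched by 1845 called genes (7.96%), with 959 rising and 886 falling. Cidec was matched by 6 genes (0.0259%), 2 rising and 4 falling. Mogat1 was matched by 0 genes in limma (0%, smallest adjusted p = 0.0516), with 2341 at an unadjusted p under 0.05. No test of the difference between these counts was made.

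Cidea and Plin4 also differed in the shape of these relations. Cidea had a correlation of 0.455 with component 1, against 0.191 for Cidec, 0.161 for Plin4 and 0.154 for Mogat1, and no gene correlated with Cidea beyond 0.5 in size. Plin4 had 34 genes beyond 0.5, with a highest correlation of 0.692 and a lowest of -0.599. For Cidec the extremes were 0.359 and -0.378, and for Mogat1 0.384 and -0.359. Without the 2 wide arrays the count for Cidea was 1263 genes, 1095 rising and 168 falling, and that for Plin4 1868, 969 rising and 899 falling. The 100 genes called higher in the high mice had a median correlation of 0.323 with Cidea, 0.190 with Cidec, 0.174 with Plin4 and 0.129 with Mogat1, and of 0.575 with component 1. For the 35 genes called lower the median was -0.258 with Plin4, -0.217 with Cidea, -0.187 with Cidec and -0.117 with Mogat1, and -0.360 with component 1. In both sets the median was larger in size with component 1 than with any chosen gene. The same held over all genes tested, with a median of 0.0610 with component 1 and of 0.0179 to 0.0424 with the chosen genes. Component 1 was computed from all genes, these sets included, so this order is a description only.

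**Figure D5:**
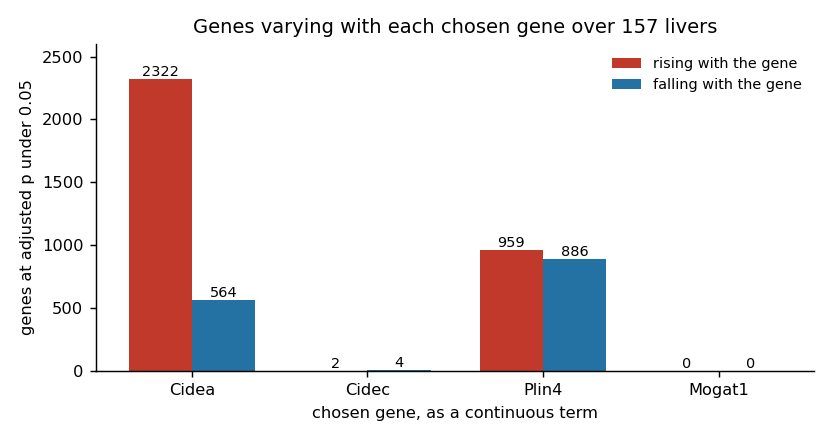
Number of genes at an adjusted p under 0.05 (y axis) that rise (red) or fall (blue) with each chosen gene as a continuous term over 157 livers, with batch and cohort as covariates. Cidea has 2322 rising and 564 falling genes and Plin4 959 and 886, while Cidec has 2 and 4 and Mogat1 0 of either.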

How the data were processed

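Liver RNA of 157 mice was labelled with Affymetrix reagents, hybridized to arrays and summarised per Ensembl gene (NCBI 37, Ensembl 49), per the labels and the series design text; RMA and affy are named per the submitters' processing notes. The unit deposited by the authors is a score: for all 23176 genes it equals, within 6e-05, the normal quantile of the rank over the arrays. No label describes that step. The mean score of the 4 genes gave the 40 highest and 40 lowest mice. limma 3.58.1 (R 4.3.3) was fitted with hybridization batch (8) and kill cohort (10; kill dates at most 2 days apart) as factors, each gene's own residual variance (62 residual degrees of freedom), no moderation, and Benjamini-Hochberg adjustment over 23172 genes. Moderation was an alternative. With 1 mouse per strain, p-values rest on the spread among mice, and the number of arrays limits the precision. In simulated data with this design (23172 genes), the fit recovered 49 of 100 genes given a difference of 1 SD. It recovered 99 of 100 given 1.5 SD and made 6 false calls. In the deposited scores, array means and component 1 moved with the ranking. Whether the recovery above holds in the deposited scores was not tested, and the share of false calls in those scores was not tested. The mice, tests and gene lists were chosen with earlier results of these data known. The named genes had to have symbols, and as no identifier matched a symbol, 2 identifiers in each direction with the smallest p were named; gene lists, cell type markers and neighbouring genes were not used here. Figures and correlations used Python 3.11.15.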

Additional observations from a re-analysis of the deposited data

How the results depend on the processing

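The 135 genes called between high and low mice came to within 1.5 times of that count under 3 of 35 alternatives (moderation without and with a trend, and a filter on low values that kept all 23176 genes), to more under 12 and to fewer under 20. By covariates, 4699 were called with none, 1513 with batch alone, 3 with strain-number block added (1 higher, 2 lower), 1 with array mean and SD added, and 1 with component 1 added. A Mann-Whitney test called 2. By number of mice, 20 against 20 gave 0 (1648 at an unadjusted p under 0.05), 30 against 30 gave 17, 52 against 52 gave 252, 3 groups of all mice 2286 and a continuous term 4025. By score, leaving out Cidea gave 332, Cidec 535, Plin4 82 and Mogat1 16, and a score with batch and cohort means removed 2715; single genes as terms gave 2886 for Cidea, 6 for Cidec, 1845 for Plin4 and 0 for Mogat1. By arrays, the count was 5, 2, 21, 36, 17, 11, 376 and 493 without batches 1 to 8 in turn, 1 in cohorts 1 to 6 alone, 0 in cohorts 7 to 10 alone (2324 at an unadjusted p under 0.05) and 2 without the 2 wide arrays. Quantile normalization gave 27. Of the 135 genes, 63 were called again with the score without Cidea, 83 without Cidec, 15 without Plin4 and 10 without Mogat1. With 52 against 52 mice 83 were called again, with the continuous term 133, and in cohorts 1 to 6 alone 0. Smaller sets hold fewer mice; otherwise the cause was not tested. Component 1, the 3 groups and the single genes were chosen after seeing the data. All 135 genes kept the sign of their difference in every alternative except Mogat1 alone, where 98 of the 100 and 34 of the 35 did; the alternatives use the same mice. The 0 genes of the interaction with early or late cohorts were 0 with moderation and without cohort 1 (981 and 1374 at an unadjusted p under 0.05). Of the 35 alternatives, ENSMUSG00000028862 passed in 28, ENSMUSG00000032601 in 24, ENSMUSG00000054008 in 21 and ENSMUSG00000022435 in 20, and none changed sign. Over all 35, passed or not, the highest limma adjusted p was 0.612, 0.706, 0.651 and 0.559 in that order. The alternative on neighbouring genes was not run, as identifiers could not be placed. No paired analysis was possible because all mice carry 1 tissue label and their numbers, given by accession order, link no mouse to another.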
